A study of Saccharomyces cerevisiae with 66 samples.

Results

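Pab1, the poly(A)-binding protein of budding yeast (Saccharomyces cerevisiae), was targeted for degradation in diploid cells that had been moved into sporulation medium, and messenger RNA was counted afterwards. The data on Pab1 are 6 of the 66 libraries: 3 libraries from cells given indole-3-acetic acid (IAA, the plant hormone auxin) and 3 from cells given DMSO, chosen by their titles. The strain is diploid (MATa/alpha) and carries ho::LYS2 and lys2, ura3, the leu2::hisG and trp1::hisG alleles, his3:p550, and PAB1 tagged with 3V5 and the IAA7 degron beside a KanMX marker. The control strain, called WT below and named for its TIR ligase in the titles, has the same background and no tagged factor. Per the labels' protocols, 500 µM IAA and 50 µM copper sulphate were added 3 h after the transfer, and the titles give 4 h for the harvest. The other 9 targeted strains of the series, each with 3 IAA and 3 DMSO libraries, are named for CAF40, DCP2, LSM1, NOT5, PAT1, POP2, RAT1, RRP6 and XRN1, all of them factors of RNA processing or decay. Copper is not mentioned for the DMSO cultures in the labels. The labels also leave out whether both copies of PAB1 are tagged and how many clones were used. Nor do they say whether the 3 libraries of a group came from separate cultures, so the spread between libraries may be technical. Unless stated otherwise, p-values and standard errors rest on a spread per gene that was estimated over all 66 libraries, not over the PAB1 libraries alone. Quality weights, lower for noisier libraries, were 0.65, 0.264 and 0.551 with IAA and 0.688, 0.2 and 1.22 with DMSO, replicates 1 to 3. The shared spread may thus understate that among the PAB1 libraries. Pab1 protein was not measured.

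Pab1 coats the poly(A) tail of messenger RNA in the cytoplasm and contacts the cap-binding factor eIF4G, which brings the ends of the message together during translation. It also meets the enzymes that shorten the tail, the Pan2-Pan3 and Ccr4-Not nucleases, after which the cap is removed and the message is degraded from its 5′ end. In heat or acid stress Pab1 itself condenses into granules, and it is encoded by an essential gene.

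The 6 PAB1 libraries held 17.9 to 25.9 M counts, so that 3 counts, taken as the floor, equal 0.164 to 0.217 counts per M (CPM, where M stands for 1000000); such floors cover counting error only. Scaling used TMM, a trimmed mean of log ratios between libraries, and its factors were low in this strain: 0.686, 0.63 and 0.706 with IAA and 0.815, 0.756 and 0.769 with DMSO, against 0.915 to 1.17 in the 60 libraries of other strains. The 10 most abundant genes took 11.8 to 17.8% of the counts in the PAB1 libraries and 8.03 to 13.4% in the others. RNA was selected by its poly(A) tail before sequencing and tail length was not measured, so fewer molecules of a message and fewer molecules that pass this selection cannot be told apart. CPM values are TMM-scaled throughout, and every level compares 1 gene between libraries, not genes with each other.

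Both libraries numbered 2 stood apart from the other PAB1 libraries in part of the genes of the meiotic divisions and spore formation. The summed level of 8 markers of cells past the meiotic divisions or forming spores was 5996, 521 and 4440.0 CPM with DMSO and 4173, 367 and 2351 CPM with IAA, replicates 1 to 3 in order. SPS4, a gene induced midway through sporulation, was the largest part of these sums, at 3938, 169 and 2682 CPM with DMSO and 2507, 104 and 1224 CPM with IAA. SMK1, SPS1, GAS4 and CRR1 were likewise lowest in replicate 2 with either addition, such as SPS1 at 722, 49.1 and 628 CPM with DMSO. The other markers of the 8 did not follow SPS4: DIT1, DIT2 and SPS100 were lowest in replicate 3 with either addition. DIT1 was at 36.6, 27.5 and 24.9 CPM with DMSO and SPS100 at 52.6, 38.4 and 32.6 CPM. The sum was thus low in the libraries numbered 2 with either addition, while single markers differed. In WT the 8 markers summed to 695, 296 and 609.8 CPM with DMSO and 490.0, 188 and 472 CPM with IAA, where replicate 2 was again the lowest. Markers of early meiosis were present in all 6 PAB1 libraries, with 10 of 10 genes counted and a summed level of 22124, 24626 and 25832 CPM with DMSO and 18232, 14961 and 15689 CPM with IAA. Haploid markers summed to no more than 154 CPM over 9 genes, and to 76.1 to 103 CPM in WT. MFA1, which encodes a mating pheromone, had no count in the 3 IAA libraries but only 5, 0 and 5 counts with DMSO, near the floor. Other members were counted in all 6 libraries, such as STE6 at 37.3 to 65.5 CPM. BAR1 was highest in replicate 2, at 31.5 CPM with DMSO and 15.2 CPM with IAA. Proliferation markers summed to 813, 2057 and 1064 CPM with DMSO and 1022, 1459 and 1048 CPM with IAA, highest in replicate 2. Most of each sum was RNR1, at 543, 1684 and 820 CPM with DMSO and 814, 1245 and 874 CPM with IAA. CLN1 and POL30 were also highest in replicate 2, but CLN2 was not, and CLB5 was not with IAA. In WT the sums were 1267, 1213 and 965 CPM with DMSO and 716, 775 and 714 CPM with IAA. In such bulk RNA, fewer cells of a type and less RNA per cell cannot be told apart. The part of these differences in the results was not tested.

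**Figure D1:**
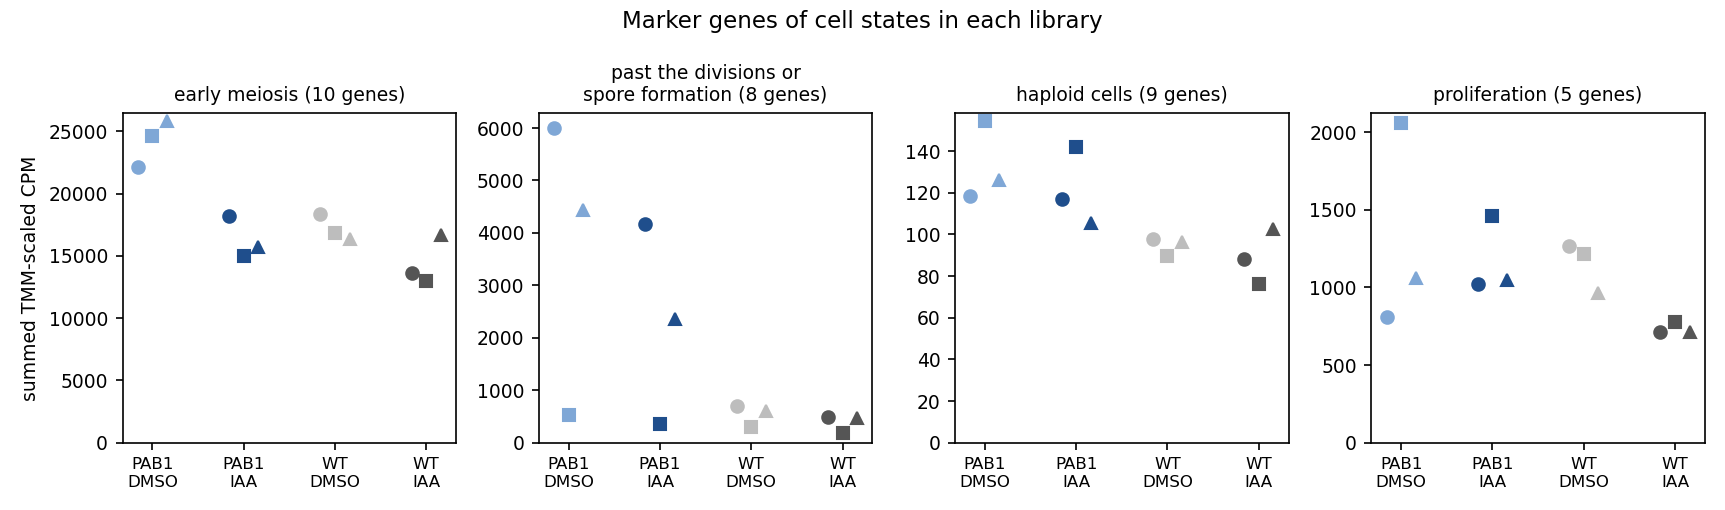
Summed TMM-scaled CPM of marker genes for 4 cell states (vertical axes, each from 0) in the 12 PAB1 and WT libraries; circles, squares and triangles are replicates 1, 2 and 3. In the second panel the 2 PAB1 libraries numbered 2 lie at 521 and 367 CPM while the other 4 lie between 2351 and 5996 CPM.

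The additions themselves were read from copper genes, which served as the reference. CUP1-1, a metallothionein that binds copper, was at 6.19, 4.36 and 9.64 CPM with DMSO and 1262, 2353 and 1462 CPM with IAA, and in WT at 9.74, 6.34 and 7 CPM and 1831, 1668 and 1747 CPM. CTR3, a copper transporter shut off by copper, fell from 3035, 1152 and 2761 CPM to 57.7, 15.4 and 31.1 CPM. The IAA libraries of PAB1 and WT thus both carried a copper response that their DMSO libraries lacked, and the groups did not overlap. The log2 change of CUP1-1 was 8.02 ± 0.82 (SE) in PAB1 and 7.85 in WT. The difference between the strains did not pass the test for CUP1-1 (0.17 ± 1.13, adjusted p = 0.975), CRS5, another metallothionein (-0.75 ± 0.52, adjusted p = 0.644), SOD1, the copper-dependent superoxide dismutase (0.21 ± 0.32, adjusted p = 0.878), CTR1, the main copper transporter (0.72 ± 0.65, adjusted p = 0.762), or CTR3 (0.19 ± 0.95, adjusted p = 0.967). CUP1 lies in a tandem repeat whose copies share reads, so its level is uncertain.

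The PAB1 transcript itself was counted at 320.2, 243 and 473 CPM with DMSO and 482, 338 and 771 CPM with IAA, and in WT at 682, 866 and 873 CPM and 789.7, 1025 and 820.0 CPM. Within each number the IAA library was the higher one, but the groups overlapped. The rise after IAA was 0.56 ± 0.19 on the log2 scale (limma, adjusted p = 0.024, or 1.89e-05 with the replicate number as a block). It was no longer called without IAA replicate 3, DMSO replicate 1 or DMSO replicate 2, where it was 0.26, 0.53 and 0.33. In a limma fit to the 6 PAB1 libraries alone the rise was 0.58 and was not called (adjusted p = 0.393). Its difference from the change in WT, 0.44 ± 0.29, did not pass the test (adjusted p = 0.609), while it exceeded the mean change of the other 9 targeted strains by 0.66 ± 0.20 (adjusted p = 0.0226; 0.308, 0.0834 and 0.166 without IAA replicate 3, DMSO replicate 1 and DMSO replicate 2). With DMSO alone the transcript was lower in the tagged strain than in WT by 1.25 ± 0.20 on the log2 scale, a 2.39-fold difference (adjusted p = 1.76e-06), and the groups did not overlap.

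IAA was compared with DMSO in the PAB1 strain across 5828 genes by limma with Benjamini-Hochberg adjustment, and genes were called at an adjusted p under 0.05. In all 1291 genes were called, 475 higher and 816 lower, which is 22.2% of those tested (8.15% higher and 14% lower). Of the called genes, 144 rose and 84 fell by 2-fold or more. The same additions in WT called 199 genes (3.41%, with 1.68% higher and 1.73% lower), and 152 genes were called in both strains with the same sign. These counts depended on the fit: with 1 quality weight per library WT called 1171 genes (20.1%) and PAB1 868 (14.9%), so that WT had more, and with the replicate block WT called 798 (13.7%). With the replicate number as a block, 2277 genes were called in PAB1, 895 higher and 1382 lower (39.1%), all 1291 among them. Without both libraries numbered 2 the count was 868 (304 higher, 564 lower), which is 14.9% (5.22% and 9.68%). The scaling set the balance of directions: with total counts alone, which moved the median of all genes by -0.21, 248 genes were called higher and 1762 lower (4.26% and 30.2%). Fitted on the 6 PAB1 libraries alone, the comparison called 168 genes, 109 higher and 59 lower.

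The change in PAB1 beyond the change in WT was then tested as an interaction, to set apart the response to IAA and copper. It called 80 genes (1.37% of those tested), 28 higher and 52 lower (0.48% and 0.892%). Of these, 75 were also called between IAA and DMSO within PAB1 with the same sign, 25 higher and 50 lower, which is 1.29% of genes tested. Without both libraries numbered 2, 79 genes were called (1.36%; 20 higher, 59 lower), 55 of the 80 among them. The count rested on single libraries, from 29 without DMSO replicate 1 to 208 without DMSO replicate 2 of PAB1, and the 12 libraries of PAB1 and WT alone called 0 genes by limma with 544 at an unadjusted p under 0.05. With the replicate block 527 genes were called beyond WT (9.04%), 171 higher and 356 lower (2.93% and 6.11%). The numbers were not taken to pair the WT libraries. This limit also holds for the block results beyond WT given below for gene lists and for the PAB1 transcript. With total-count scaling 20 genes were called higher and 436 lower.

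The strains also differed before IAA. With DMSO 2639 genes differed between PAB1 and WT (45.3%), 1300 higher and 1339 lower in PAB1 (22.3% and 23%). With total-count scaling the split was 515 higher and 2828 lower. Of the 80 genes called beyond WT, 37 were among the 2639 with the same sign. These were 19 of the 28 called higher and 18 of the 52 called lower, against 22.3% and 23% of all genes. The DMSO libraries of both strains enter the 2 comparisons with opposite sign. The tag and other differences between the strains or their cultures cannot be told apart here. By the rule for the genes named next, the 12 largest changes in each direction were taken among the 69 genes called both after IAA and beyond WT that had separate groups and a mean of at least 10 CPM. Of these 24 genes, 5 kept the call beyond WT when any 1 of the 12 libraries was left out (SSA4, STL1, KAP95, YNG2 and ODC1), and the other 19 lost it in 1 to 9 of the 12 fits. Without PAB1 IAA replicates 1, 2 and 3 in turn, 2, 15 and 11 calls were lost, and without PAB1 DMSO replicates 1, 2 and 3, 14, 2 and 5. Without WT IAA replicates 1, 2 and 3, 6, 3 and 10 were lost, and without WT DMSO replicates 1, 2 and 3, 2, 9 and 11, with adjusted p up to 0.246.

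**Figure D2:**
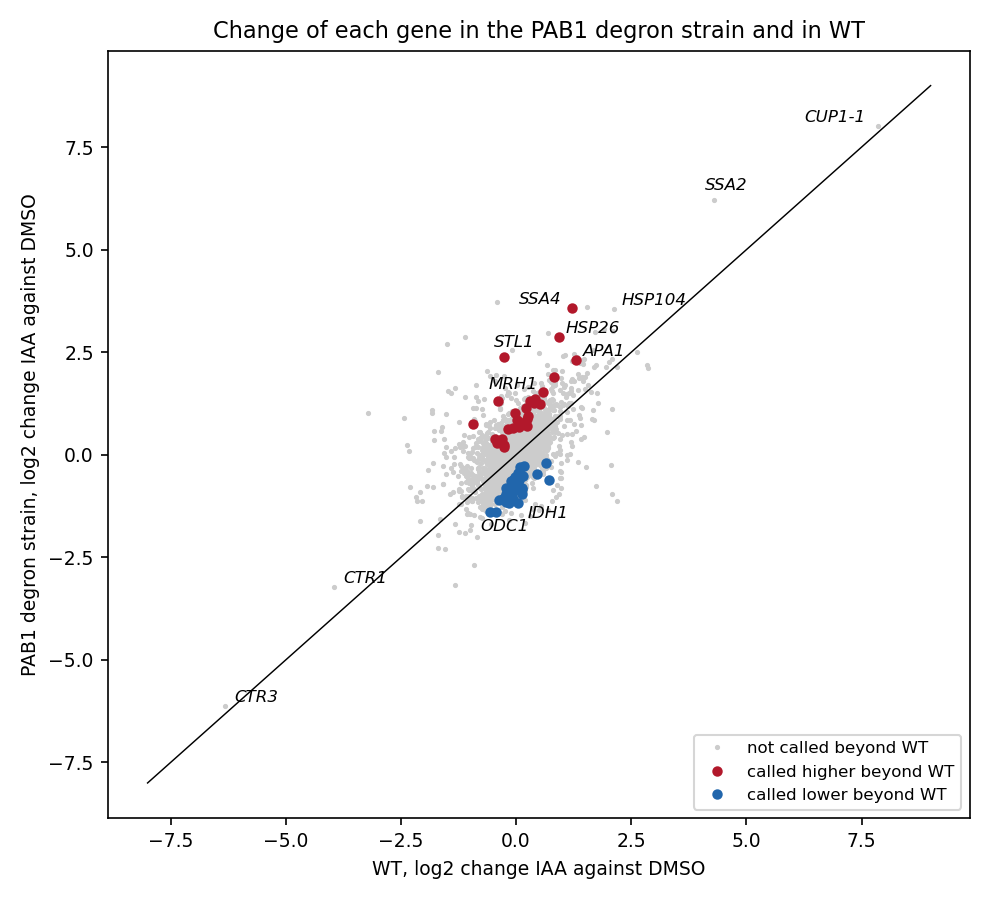
Log2 change between IAA and DMSO of 5828 genes in WT (horizontal) and in the PAB1 degron strain (vertical), with the line of equal change; the 28 red and 52 blue points passed the test of the difference between strains. CUP1-1, CTR1 and CTR3 lie near the line, while SSA4, STL1 and HSP26 lie above it and ODC1 and IDH1 below it.

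Among the named genes that rose in PAB1 beyond WT, SSA4 had the largest change within PAB1; it encodes an Hsp70 chaperone induced by stress. Its level was 234, 129 and 185 CPM with DMSO and 2493, 2108 and 1831 CPM with IAA, and 79.9, 82.8 and 91.2 CPM and 181, 246 and 167 CPM in WT. All 3 IAA libraries of PAB1 exceeded all other libraries of these strains by a wide margin. SSA4 rose 12-fold in PAB1 (log2 3.59 ± 0.36, adjusted p = 2.40e-10), by 2.38 ± 0.46 more than in WT (adjusted p = 0.00459), and this call was kept in each of 12 fits that left out 1 library. HSP26, a small heat shock protein that holds unfolded proteins, was at 153, 104 and 107 CPM with DMSO and 1159, 989 and 568 CPM with IAA. The groups did not overlap, and the excess over WT was 1.95 ± 0.50 (adjusted p = 0.0278; 0.113 without the libraries numbered 2).

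STL1, a glycerol transporter of the plasma membrane, rose from 8.98, 9.16 and 6.6 CPM to 31.8, 90.5 and 29.4 CPM, with replicate 2 the highest. In WT it stayed between 6.12 and 14.2 CPM, and the difference between strains was 2.66 ± 0.56 (adjusted p = 0.00862), called in each of the 12 fits that left out 1 library. MRH1, a membrane protein related to Hsp30, was at 234, 293 and 241 CPM with DMSO and 385, 1091 and 578 CPM with IAA, again highest in replicate 2. In WT it was at 176, 123 and 147 CPM with DMSO and 138, 98.5 and 103 CPM with IAA. Its excess over WT was 1.70 ± 0.40 (adjusted p = 0.0168; 0.0858 without the libraries numbered 2).

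Large proteins of transport between compartments stood among the genes that rose, a grouping made after their values were seen. KAP95, the importin that carries proteins into the nucleus with Kap60, was at 293, 321 and 372 CPM with DMSO and 1009, 841 and 989 CPM with IAA. NUP188, a subunit of the nuclear pore, was at 129, 127 and 188 CPM with DMSO and 352, 276 and 335 CPM with IAA. Neither gene overlapped between the groups, and both were already higher in the tagged strain with DMSO than in WT, KAP95 by 0.98 and NUP188 by 0.99 on the log2 scale. KAP95 exceeded the change in WT by 0.94 ± 0.20 (adjusted p = 0.00788) and NUP188 by 0.92 ± 0.25 (adjusted p = 0.0417; 0.0778 without the libraries numbered 2). CHC1, the heavy chain of clathrin, was at 223, 259 and 241 CPM with DMSO and 613, 728 and 511 CPM with IAA. SEC31, a coat subunit of vesicles that leave the endoplasmic reticulum, was at 588, 1123 and 838 CPM with DMSO and 1645, 2747 and 1922 CPM with IAA. These coat genes also did not overlap, with an excess over WT of 0.94 ± 0.21 for CHC1 and 1.02 ± 0.23 for SEC31 (adjusted p = 0.0098 and 0.0102). With DMSO they too were above WT, by 0.75 for CHC1 and 0.49 for SEC31 (limma, adjusted p = 2.27e-05 and 0.00776).

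The other 4 of the 12 genes with the largest rises were TAH11, whose product loads the replicative helicase at origins, APA1, which cleaves diadenosine tetraphosphate, SFA1, a glutathione-dependent formaldehyde dehydrogenase, and HLJ1, an Hsp40 co-chaperone of the endoplasmic reticulum membrane. Their log2 changes in PAB1 were 1.91 ± 0.20, 2.31 ± 0.20, 1.27 ± 0.16 and 1.23 ± 0.13, against 0.82, 1.30, 0.39 and 0.52 in WT. The excess over WT passed the limma test for each, with adjusted p from 0.0225 for HLJ1 to 0.0498 for APA1, and for none of the 4 without the libraries numbered 2 (0.0963 for TAH11, 0.334 for APA1, 0.181 for SFA1 and 0.15 for HLJ1).

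**Figure D3:**
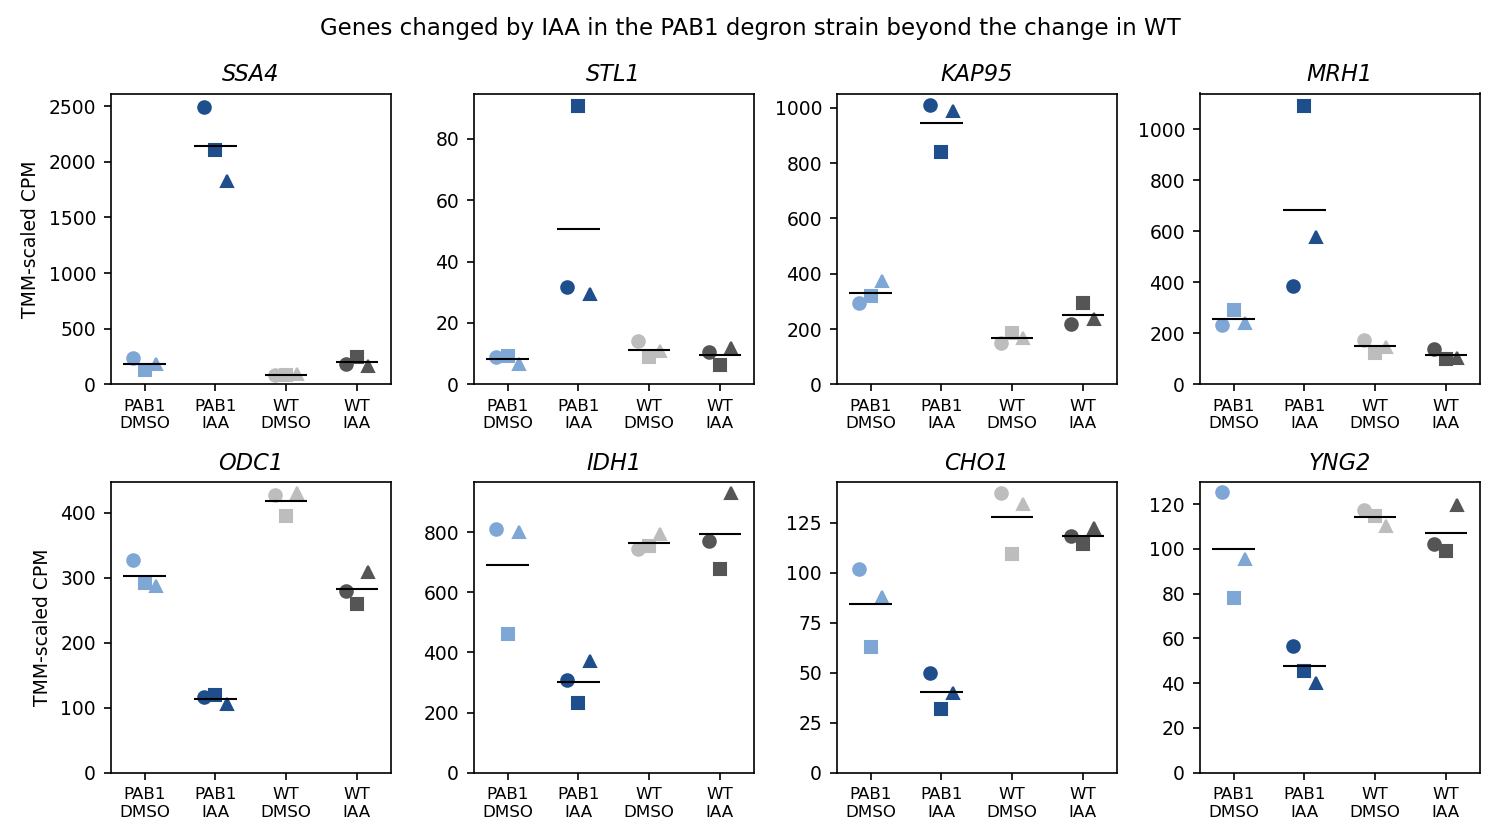
TMM-scaled CPM (vertical axes, each from 0) of 8 genes called beyond the change in WT, in 3 PAB1 and 3 WT libraries per addition; circles, squares and triangles are replicates 1, 2 and 3 and bars are group means. The upper row rose in the PAB1 IAA libraries, SSA4 to between 1831 and 2493 CPM, and the lower row fell there, ODC1 to between 105 and 120 CPM.

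Among the named genes that fell in PAB1 beyond WT, ODC1 had the largest fall within PAB1; it encodes a carrier of oxodicarboxylic acids in the inner mitochondrial membrane. Its level was 327, 292 and 288 CPM with DMSO and 117, 119.8 and 105 CPM with IAA, and 428, 395 and 431 CPM and 280.4, 259.8 and 309 CPM in WT. It fell 2.64-fold in PAB1 (log2 -1.40 ± 0.12, adjusted p = 4.98e-12), a difference from WT of -0.84 ± 0.18 (adjusted p = 0.00867), called in each of the 12 fits that left out 1 library. IDH1, a subunit of the NAD-dependent isocitrate dehydrogenase of the citrate cycle, was at 809, 460.3 and 799 CPM with DMSO and 307, 231 and 370.0 CPM with IAA, with replicate 2 the lowest of each group. In WT it was at 744, 755 and 795 CPM and 772, 676 and 932 CPM, and the difference was -1.22 ± 0.28 (adjusted p = 0.0131). IDH2, the partner subunit, was at 873, 529 and 966 CPM with DMSO and 479.9, 339 and 529 CPM with IAA, where the groups overlapped, and its difference from WT was -1.17 ± 0.33 (adjusted p = 0.0537). Its fall within PAB1 was not called without IAA replicate 2 (-0.61) or DMSO replicate 3 (-0.63). SPG5, a proteasome assembly factor of stationary phase, was at 1846, 2434 and 1944 CPM with DMSO and 815, 948 and 620.0 CPM with IAA, with no overlap, and differed from WT by -0.96 ± 0.24 (adjusted p = 0.0217).

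The remaining genes of the 12 with the largest falls had lower counts. CHO1, which makes phosphatidylserine, was at 102, 63.1 and 88 CPM with DMSO and 50, 31.7 and 39.8 CPM with IAA, and YNG2, a subunit of the NuA4 histone acetyltransferase, at 126, 78.3 and 95.6 CPM with DMSO and 56.8, 45.6 and 40.2 CPM with IAA. Neither overlapped between the groups, and they differed from WT by -0.95 ± 0.20 and -0.97 ± 0.18 (adjusted p = 0.00788 and 0.00317), both also called without the libraries numbered 2. SSU72, a phosphatase of RNA polymerase II that acts in 3′-end processing, was at 39.2, 30.1 and 30.5 CPM with DMSO and 22.9, 10.5 and 15.6 CPM with IAA and differed from WT by -1.01 ± 0.24 (adjusted p = 0.0169; 0.0806 without the libraries numbered 2). The rest were MIC10, which shapes the cristae of mitochondria, MRPL23, a mitochondrial ribosomal protein, RCN1, a regulator of calcineurin, LRS4, a subunit of the monopolin complex of meiosis, IRC6, a clathrin coat factor, and YOR292C, an uncharacterised gene. They fell by 1.04 (LRS4) to 1.17 (YOR292C) on the log2 scale in PAB1, where all their groups were separate, and by 0.73 (RCN1) to 1.01 (YOR292C) relative to WT. Without the libraries numbered 2, MRPL23, LRS4 and IRC6 were not called beyond WT (adjusted p = 0.0624, 0.0719 and 0.0671). MIC10, YOR292C and RCN1 kept the call there, but each lost it without PAB1 DMSO replicate 1 (limma, adjusted p = 0.246, 0.117 and 0.0554).

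Cytosolic chaperones fold proteins in the cytoplasm and rescue those that unfold in stress, and Hsf1 switches many of their genes on. Of 32 tested, 22 rose after IAA in PAB1 (68.8%, against 8.15% of all genes) and 0 fell, with a median log2 change of 1.70 against -0.04 over all genes. The medians of the 3 same-numbered pairs were 1.21, 2.21 and 1.68, all above 0. Without the libraries numbered 2, 18 rose (56.2%, against 5.22% of all genes). WT also raised 18 of them, with a median of 1.16, and beyond WT 2 were called, SSA4 and HSP26. HSP104, the disaggregase that pulls proteins out of aggregates, was at 509.8, 285 and 440.5 CPM with DMSO and 4893, 5371 and 3896 CPM with IAA. BTN2, which gathers misfolded proteins into deposits, was at 143, 159 and 136 CPM with DMSO and 879.8, 1953 and 1018 CPM with IAA. For these genes no IAA library overlapped a DMSO library, with log2 changes of 3.55 ± 0.42 and 3.06 ± 0.39 in PAB1 and 2.13 and 1.92 in WT. SSA2, an abundant Hsp70, rose from 37.2, 12 and 42.5 CPM to 1384, 1998 and 2786 CPM, but it shares most of its sequence with SSA1, so the split of reads between them is uncertain. HSF1 itself did not pass the test, at 0.11 (adjusted p = 0.687).

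The promoters of these genes were searched for the heat shock element, the site bound by Hsf1, to describe which of the risen chaperones hold it. The motif was written as GAA, any 2 bases, TTC, any 2 bases and GAA, or the same with TTC and GAA exchanged, so that both strands were covered, overlapping matches were kept, and the window was the 500 bases before each start codon in the R64 RefSeq genome. It lay in 82 of 5507 promoters (1.49%), in 10 of 32 cytosolic chaperones (31.2%), and all of those were among the 22 that rose. Among all genes called higher after IAA in PAB1 the share was 5.15% (24 of 466), among those called lower 1.25% (10 of 800), and in WT 20.2% of those called higher (19 of 94). Of the 28 genes that rose beyond WT, 1 held it, APA1. The windows of SSA4 and HSP26 held no match to these letters. The stretches of 100 bases below carry the match in APA1 and in the 3 chaperone genes with the largest rises that hold one, leaving out SSA2, which also holds it and rose more but whose reads cannot be told apart well from those of SSA1; they read 5′ to 3′ on the coding strand, with the motif in capitals. The build behind the deposited counts is not given in the sources used here, so the coordinates are those of R64.
APA1, chrIII:38931-39030, minus strand: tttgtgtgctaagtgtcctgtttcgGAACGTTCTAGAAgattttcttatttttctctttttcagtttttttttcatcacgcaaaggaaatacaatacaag
HSP104, chrXII:88296-88395, plus strand: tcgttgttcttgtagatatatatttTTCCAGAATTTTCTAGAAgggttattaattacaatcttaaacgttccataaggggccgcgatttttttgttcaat
BTN2, chrVII:772085-772184, plus strand: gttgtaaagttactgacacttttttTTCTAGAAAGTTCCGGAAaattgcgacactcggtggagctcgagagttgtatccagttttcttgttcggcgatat
SSE1, chrXVI:352387-352486, minus strand: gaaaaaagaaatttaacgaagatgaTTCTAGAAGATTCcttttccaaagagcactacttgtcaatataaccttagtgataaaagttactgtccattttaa
The match began 204 bases before the start codon in APA1. It began 302 in HSP104 and 344 in BTN2, in both of which the capitals join 2 overlapping matches, and 186 in SSE1, an exchange factor of Hsp70. SSE1 was at 835, 443 and 815 CPM with DMSO and 5400.0, 5469.8 and 5162 CPM with IAA, with separate groups and a log2 change of 2.99 ± 0.29. The stress response element, CCCCT or AGGGG, was searched in the same windows. It lay in 34.6% of all promoters, 38.2% of genes called higher after IAA in PAB1 and 33.5% of those called lower. Beyond WT, 14 of 28 genes called higher held it and 13 of 52 called lower. A match describes the letters of the promoter and shows no binding.

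Chaperones of the mitochondrial matrix and the endoplasmic reticulum split. Of 15 tested, 8 rose and 3 fell in PAB1 (53.3% and 20%, against 8.15% and 14%), with a median of 0.45 (0.15 in WT), and none was called beyond WT. HLJ1, the Hsp40 of the endoplasmic reticulum membrane that was called beyond WT, stands outside this list. With total-count scaling 7 rose and 5 fell. Without the libraries numbered 2, 7 rose and 1 fell (46.7% and 6.67%, against 5.22% and 9.68% of all genes). HSP60, the chaperonin of the mitochondrial matrix, was at 511, 329 and 458 CPM with DMSO and 1964, 2243 and 2276 CPM with IAA. HSP78, the matrix relative of Hsp104, was at 308, 158 and 260.2 CPM with DMSO and 1072, 1116 and 1159 CPM with IAA, SSC1, the matrix Hsp70, at 337, 265 and 378 CPM with DMSO and 1025, 1538 and 1299.7 CPM with IAA, and MDJ1, its Hsp40 partner, at 125, 119 and 126 CPM with DMSO and 329, 619.5 and 421 CPM with IAA. For all 4 the groups were separate, with log2 changes from 1.84 (MDJ1) to 2.34 (HSP60) in PAB1 and from 1.21 (MDJ1) to 2.02 (HSP78) in WT. The genes that fell, JEM1, SIL1 and LHS1, serve the endoplasmic reticulum and changed by -0.49, -0.42 and -0.31.

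Genes of amino acid biosynthesis, many of them targets of the activator Gcn4, gave calls in 1 direction in PAB1. Of 49 tested, 25 rose and 0 fell (51% and 0%, against 8.15% and 14% of all genes), with a median of 0.85 against -0.04 over all genes, while WT raised 4 with a median of 0.28. None was called beyond WT (4 higher with the replicate block), where the median was 0.37, and 11 were called higher beyond the other 9 targeted strains. Pair medians were 0.42, 1.01 and 0.99, and 17 rose without the libraries numbered 2 (34.7%, against 5.22%). With total-count scaling 19 rose and 3 fell. MET6, the methionine synthase, was at 301, 250.4 and 439 CPM with DMSO and 861, 1138 and 2092 CPM with IAA. ILV3, which acts in isoleucine and valine synthesis, was at 201, 232 and 247 CPM with DMSO and 387, 1179 and 984 CPM with IAA. MET17, which joins sulfide to homoserine, was at 73.7, 85.1 and 104 CPM with DMSO and 269, 308 and 583 CPM with IAA, and ILV2, the acetolactate synthase, at 484, 424 and 541 CPM with DMSO and 1063, 2109.9 and 2006 CPM with IAA. Every IAA library exceeded every DMSO library for these genes, with replicate 1 the lowest of the IAA group in each. Their log2 changes were 1.96 ± 0.35, 1.76 ± 0.31, 2.06 ± 0.55 and 1.77 ± 0.37, and in WT 0.70, 0.55, 0.79 and 0.75. The GCN4 message, whose product is controlled mainly through translation, did not pass the test at 0.20 (adjusted p = 0.401).

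The core letters of the Gcn4 site, TGACTC or GAGTCA on either strand, lay in 33 of 49 of these promoters (67.3%) and in 719 of 5507 of all (13.1%), over the same window of 500 bases. Of the 25 biosynthetic genes that rose, 17 held it. Over all genes called higher after IAA in PAB1 the share was 19.1% (89 of 466) and over those called lower 9.12% (73 of 800). For genes called higher in WT it was 13.8% (13 of 94). Beyond WT, 4 of 28 genes called higher held it (14.3%, near the 13.1% of all promoters) and 3 of 52 called lower (5.77%). The 3 genes of the list with the largest rises that hold the site are shown with the match in capitals, from R64, on the coding strand.
MET6, chrV:342552-342651, minus strand: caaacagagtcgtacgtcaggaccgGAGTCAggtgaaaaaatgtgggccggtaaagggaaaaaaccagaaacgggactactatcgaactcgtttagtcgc
ILV3, chrX:466269-466368, minus strand: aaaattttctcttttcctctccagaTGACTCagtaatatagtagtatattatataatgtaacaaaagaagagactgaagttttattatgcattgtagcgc
LEU1, chrVII:478879-478978, minus strand: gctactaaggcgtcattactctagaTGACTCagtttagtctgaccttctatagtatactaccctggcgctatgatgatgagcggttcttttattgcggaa
LEU1, the isopropylmalate isomerase of leucine synthesis, was at 3437, 3071 and 4093 CPM with DMSO and 9865, 11684 and 11724 CPM with IAA, with separate groups and a log2 change of 1.65 ± 0.26. The match began 135 bases before the start codon in ILV3 and 301 in LEU1, and MET6 had 2, of which the stretch shows the one 459 bases away.

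Among 8 stress-responsive membrane proteins and plasma membrane proton pumps, 4 rose (50%, against 8.15% of all genes) and 0 fell, with a median of 1.02 in PAB1 and 0.05 in WT. YRO2, a relative of Hsp30 and Mrh1, was at 125, 241 and 92.3 CPM with DMSO and 1329.6, 3939.8 and 924 CPM with IAA. PMA1, the proton pump of the plasma membrane, was at 423, 446 and 576 CPM with DMSO and 1041, 2952 and 1761 CPM with IAA, and HSP30, a regulator of that pump, at 37.9, 50.7 and 39.4 CPM with DMSO and 109, 222 and 79 CPM with IAA. The groups were separate and replicate 2 was highest with IAA in each of these genes. Their log2 changes were 3.61 ± 0.47, 1.88 ± 0.37 and 1.55 ± 0.32, against 1.55, 0.78 and 0.38 in WT. Beyond WT, MRH1 and PMA2 were called, and YRO2 missed the threshold at 2.06 ± 0.61 (adjusted p = 0.0681). PMA2 did not pass the limma test within PAB1 (0.74 ± 0.32, adjusted p = 0.0953). It was at 270, 526 and 242 CPM with DMSO and 421, 1101 and 328 CPM with IAA, where the groups overlapped, and changed by -0.93 in WT. Without the libraries numbered 2, 0 of the 8 genes were called beyond WT. In glycolysis and fermentation 5 of 30 genes rose (16.7%, against 8.15% of all genes) and 0 fell, with none called beyond WT and 7 called higher beyond WT with the replicate block (within PAB1 9 and 1 with the replicate block, 3 and 1 with total-count scaling). PGK1, the phosphoglycerate kinase, was at 518, 389 and 293 CPM with DMSO and 2315, 2788 and 1549 CPM with IAA, with separate groups and a log2 change of 2.49 ± 0.59 in PAB1 against 0.49 in WT (difference 2.00 ± 0.81, adjusted p = 0.249). ENO2, an enolase, and ALD6, an aldehyde dehydrogenase, rose by 1.35 ± 0.50 and 1.34 ± 0.38, and neither was called without the libraries numbered 2 (adjusted p = 0.208 and 0.0819).

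Nuclear genes for the mitochondrial respiratory chain and ATP synthase fell in PAB1. Of 40 tested, 27 fell (67.5%, against 14% of all genes) and 0 rose, with a median of -0.68 and pair medians of -0.76, -0.43 and -0.80. In WT 11 fell, with a median of -0.49, and none was called beyond WT. With the replicate block 6 were called lower beyond WT. Without the libraries numbered 2, 26 fell (65%, against 9.68% of all genes). ATP20, a subunit that holds ATP synthase dimers together, was at 109, 91.6 and 114 CPM with DMSO and 51.9, 40.5 and 42.6 CPM with IAA. COX6, a subunit of cytochrome c oxidase, was at 175, 128 and 160.5 CPM with DMSO and 82.1, 74 and 65.4 CPM with IAA. The groups were separate for both, at log2 changes of -1.22 ± 0.17 and -1.06 ± 0.23, against -0.59 and -0.87 in WT. ATP7 and ATP15, further ATP synthase subunits, changed by -1.07 ± 0.14 and -1.14 ± 0.15. These are short genes, with a median coding length of 465 bases against 1230.0 over all coding genes tested, and the part of length in their fall was not tested.

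Other mitochondrial groups gave calls in shares closer to those of all genes. Of 72 mitochondrial ribosomal protein genes, 14 fell and 0 rose (26 fell with the replicate block, 9 without the libraries numbered 2), which is 19.4% lower against 14% of all genes (36.1% against 23.7% and 12.5% against 9.68%), with a median of -0.28 in PAB1 and -0.10 in WT, where none was called. MRPS9 was at 59.9, 44 and 47.9 CPM with DMSO and 31.2, 28.3 and 27.5 CPM with IAA, and MRPL23, which was called beyond WT, at 55, 53.3 and 48.7 CPM with DMSO and 28.2, 23.6 and 23.3 CPM with IAA; neither overlapped between groups. With total-count scaling 37 fell. Of 34 genes of the citrate and glyoxylate cycles and gluconeogenesis, 6 rose and 7 fell, 17.6% and 20.6% against 8.15% and 14% of all genes (5 and 10 with total-count scaling). With the replicate block 12 rose and 9 fell, 35.3% and 26.5% against 15.4% and 23.7% of all genes. MDH1, the mitochondrial malate dehydrogenase, fell from 2155, 1753 and 2381 CPM to 946, 574 and 836 CPM, while ICL1 and MLS1, the enzymes particular to the glyoxylate cycle, rose by 1.71 ± 0.30 and 1.26 ± 0.23, against 1.55 and 1.20 in WT. ACS1, the acetyl-CoA synthetase, took 2.46, 4.17 and 2.68% of the counts with IAA and 1.25, 2.3 and 1.46% with DMSO. Of 30 carriers of the inner membrane, 2 rose and 8 fell, 6.67% and 26.7%; AAC1, an ADP/ATP carrier, fell from 643, 855 and 591 CPM to 182, 128 and 124 CPM, a log2 change of -2.27 ± 0.19 in PAB1 and -1.69 in WT.

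**Figure D4:**
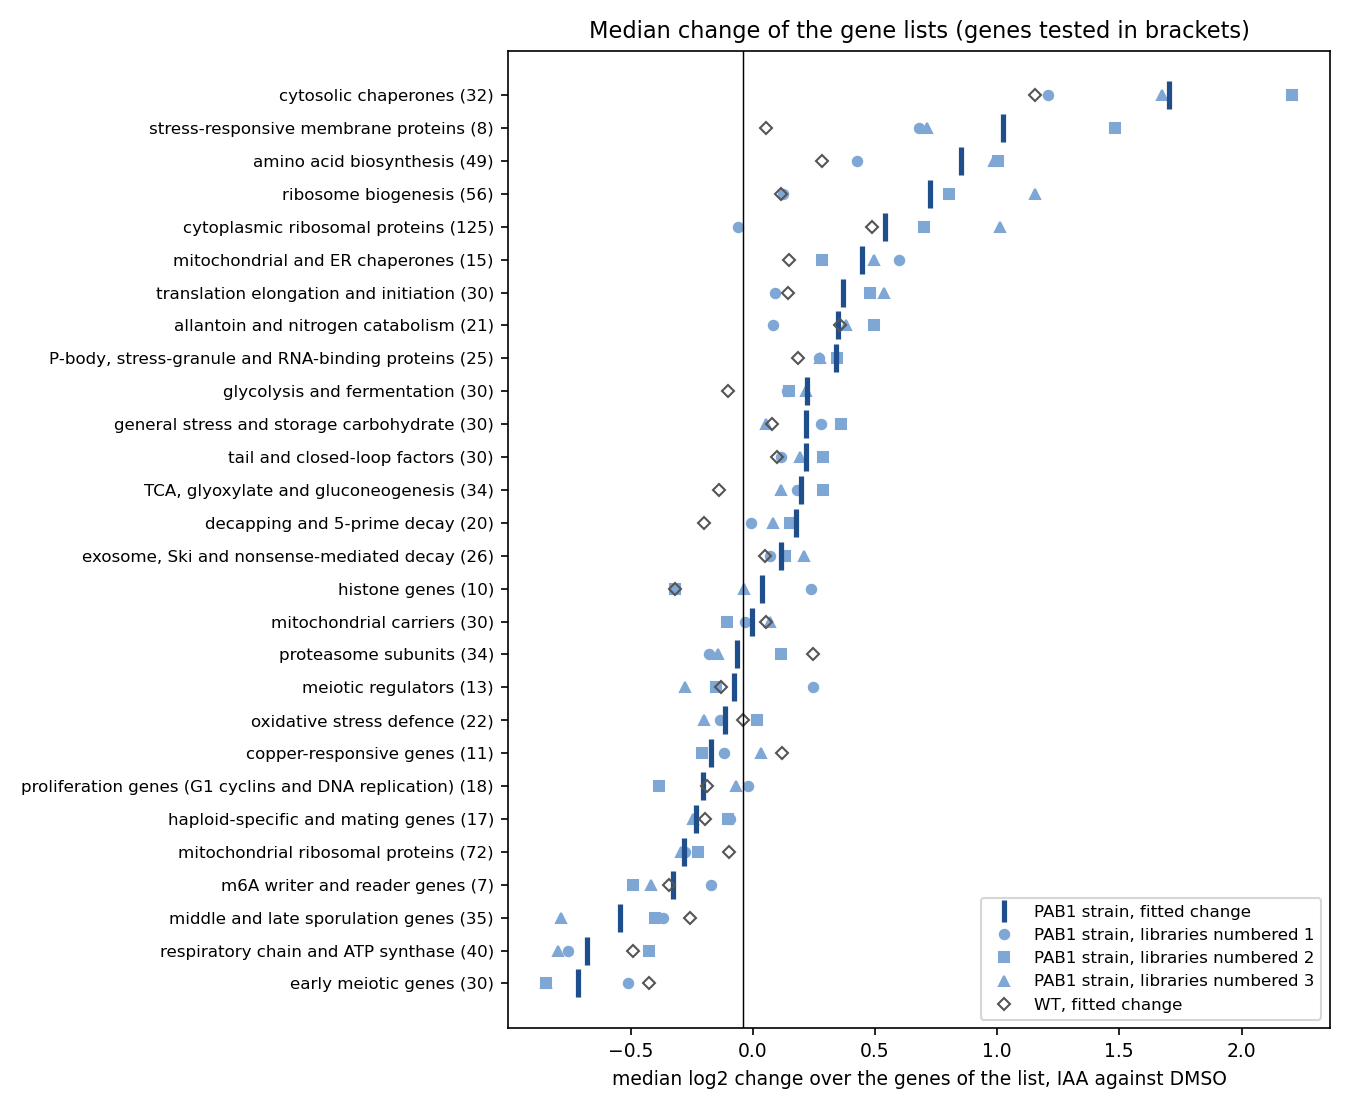
Median log2 change between IAA and DMSO over each of 28 gene lists, with the number of genes tested in brackets: bars are the fitted change in PAB1, filled symbols the 3 same-numbered PAB1 pairs and open diamonds the fitted change in WT; the vertical line is the median of all genes in PAB1, -0.04. Cytosolic chaperones lie farthest to the right at 1.70 and early meiotic genes farthest to the left at -0.72.

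The partners of Pab1 on the tail and in the closed loop were examined next. Of 30 genes for tail nucleases, tail-binding proteins and cap-binding or eIF4F factors, 6 rose and 0 fell, against 8.15% and 14% of all genes tested, and none was called beyond WT (3 higher with the replicate block). With the replicate block 12 rose and 1 fell, against 15.4% and 23.7% of all genes. The median was 0.22 (0.10 in WT), and with total-count scaling it was 0.01, with 2 higher and 3 lower. DED1, an RNA helicase of translation initiation, was at 334, 323 and 516 CPM with DMSO and 715, 937 and 1361 CPM with IAA, with separate groups, and rose by 1.32 ± 0.21 (adjusted p = 3.63e-06). PBP1, a Pab1-binding protein related to human ataxin-2, was at 269, 348 and 316 CPM with DMSO and 465, 567 and 457 CPM with IAA, also separate, and rose by 0.68 ± 0.09 (adjusted p = 5.67e-08); its excess over WT of 0.41 ± 0.12 missed the threshold (adjusted p = 0.0574). PAP1, the nuclear poly(A) polymerase, CAF20, an inhibitor of cap-binding protein, and NOT3, a subunit of Ccr4-Not, were called with 0.35, 0.63 and 0.42, as was PAB1. PAP1 was not called without IAA replicate 1 or DMSO replicate 2. CAF20 and NOT3 were each not called without IAA replicate 3 or without the libraries numbered 2 (adjusted p = 0.0821 and 0.229).

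The nucleases that trim the tail did not pass the test in the change between IAA and DMSO, given here on the log2 scale. PAN2 was at 0.18, PAN3 at 0.14, CCR4 at 0.23 and POP2 at 0.03. Of the scaffold and other subunits of Ccr4-Not, CDC39 was at 0.37, CDC36 at -0.08, NOT5 at -0.19, MOT2 at -0.15, CAF40 at 0.12 and CAF130 at 0.24. The eIF4F genes TIF4631 and TIF4632 (eIF4G), CDC33 (eIF4E), TIF1 and TIF2 (eIF4A) and TIF3 (eIF4B) were at 0.46, 0.15, 0.27, 0.42, 0.31 and 0.21. The termination factors SUP35 and SUP45 were at 0.26 and -0.09, the eIF4E-binding protein EAP1 at 0.12, and the RNA-binding proteins PUB1, NAB2, GBP2, HRP1 and SBP1 at 0.23, 0.20, 0.14, -0.30 and -0.28. Standard errors of these values ran from 0.09 to 0.31, so changes of that order could not be seen. With the replicate block CCR4, CAF130, PUB1, SUP35, TIF2 and TIF4631 were called higher and NOT5 lower (adjusted p = 0.0158, 0.0253, 0.00648, 0.0352, 0.0493, 0.0472 and 0.0246). TIF1 and TIF2 are near-identical and their split of reads is uncertain.

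In the fit without the block, messages for decapping, 5′ decay and the exosome gave calls in shares near or below those of all genes (8.15% higher and 14% lower). Of 20 genes for decapping and 5′ decay, 2 rose and 1 fell, 10% and 5% (0 and 6 with total-count scaling). With the replicate block 6 rose and 4 fell, 30% and 20% against 15.4% and 23.7% of all genes. Beyond WT, 4 of the 20 were then called higher, against 2.93% of all genes. At an unadjusted p under 0.05 limma without the block gave 10 of the 20 within PAB1, against 1944 of 5828 genes. Those called were DCP2, the decapping enzyme, at 0.32 ± 0.09, PAT1, a decapping activator, at 0.35 ± 0.12, and LSM2, of the Lsm ring, at -0.56 ± 0.15. For DCP2 and PAT1 the groups overlapped, and neither was called without IAA replicate 3 or DMSO replicate 1 (log2 0.27 and 0.24 for DCP2, 0.32 and 0.22 for PAT1); LSM2 was not called without IAA replicate 3 (-0.45). XRN1, the 5′ exonuclease, was at 0.24 (adjusted p = 0.271). Of 26 genes of the exosome, the Ski complex and nonsense-mediated decay, 1 rose and 3 fell (6 and 3 with the replicate block). MTR3, an exosome ring subunit, was at 60.5, 58.2 and 60.6 CPM with DMSO and 29.3, 29.2 and 40.2 CPM with IAA, with separate groups. Of 25 P-body, granule and other RNA-binding protein genes, 9 rose and 4 fell, 36% and 16% against 8.15% and 14% of all genes (3 and 3 without the libraries numbered 2, 3 and 5 with total-count scaling). SGN1, an RNA-binding protein linked to eIF4G, fell from 69.7, 49.3 and 66 CPM to 40.2, 32.1 and 34.4 CPM with no overlap, while in WT it was at 82.6, 81.3 and 81 CPM and 84.1, 77.4 and 90.2 CPM. It was called beyond WT at -0.82 ± 0.15 (adjusted p = 0.00317) and in each fit that left out 1 library. CTH1, which promotes decay of iron-related messages, rose from 23.6, 13.1 and 23.7 CPM to 55.8, 71 and 63.2 CPM.

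Translation factors outside the closed loop gave 4 higher and 3 lower calls of 30, 13.3% and 10% against 8.15% and 14% of all genes, and 16 and 6 with the replicate block (53.3% and 20%, against 15.4% and 23.7%) or 2 and 5 with total-count scaling. HCR1, a subunit of eIF3, was at 223, 171 and 199 CPM with DMSO and 110.0, 98.5 and 130.0 CPM with IAA, with separate groups, and differed from WT by -0.93 ± 0.19 (adjusted p = 0.00788). SUI1, which is eIF1, fell from 120.3, 86.1 and 106 CPM to 46.4, 34.3 and 46.9 CPM, a log2 change of -1.29 ± 0.18 in PAB1 and -0.57 in WT. TEF2, an elongation factor gene near-identical to TEF1, was listed at 10576, 7836 and 8958 CPM with DMSO and 20645, 21034 and 18799 CPM with IAA. Genes for ribosome biogenesis and cytoplasmic ribosomal proteins had medians of 0.72 and 0.54, yet limma called 0 of 56 and 0 of 125. At an unadjusted p under 0.05 there were 2 and 2, and with the replicate block 13 and 13 were called higher (23.2% and 10.4%, against 15.4% of all genes). Their pair medians were 0.12, 0.80 and 1.15 for ribosome biogenesis and -0.06, 0.70 and 1.01 for ribosomal proteins, lowest in replicate 1. With DMSO, ribosomal protein genes were below WT in the tagged strain, 90 of 125 called lower with a median of -1.33; many are near-identical pairs that share reads.

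Genes of early meiosis, which act in recombination and pairing of chromosomes, fell in PAB1 after IAA. Of 30 tested, 17 fell (56.7%, against 14% of all genes) and 0 rose, with a median of -0.72, but 4 fell without the libraries numbered 2 (13.3%, against 9.68% of all genes, a share near the background), where the median was -0.69. In WT 1 fell, with a median of -0.43, and none was called beyond WT. HED1, a gene of meiotic recombination, was at 699.6, 601 and 633 CPM with DMSO and 324, 239 and 268 CPM with IAA, and SPO11, which makes the double-strand breaks of meiosis, at 270.4, 282 and 295 CPM with DMSO and 166, 141 and 131 CPM with IAA. The groups were separate for these genes, with log2 changes of -1.23 ± 0.27 and -0.96 ± 0.28, but SPO11 was not called without IAA replicate 3 (-0.88). IME2, a kinase that drives meiosis, fell from 5864, 4580.4 and 6657 CPM to 3439, 1562 and 2934 CPM, and it was not called without IAA replicate 2 (log2 -0.83). Of 7 genes for writing and reading m6A, a mark on messages in early meiosis, SLZ1 and MUM2, of the methyltransferase complex, and PHO92, the reader, fell, with log2 changes of -1.22 ± 0.30, -0.79 ± 0.14 and -0.92 ± 0.23. PHO92 was not called by limma without the libraries numbered 2 (-0.78, adjusted p = 0.0605). None of these genes differed from WT by the test, with differences of -0.66 ± 0.43, -0.45 ± 0.20 and -0.57 ± 0.33 (adjusted p = 0.607, 0.321 and 0.518). Of 35 middle and late sporulation genes 2 fell (5.71%, below the 14% of all genes), and 20 with the replicate block (57.1%, against 23.7%). With DMSO 29 were called above WT, with a median of 2.49, in libraries that differed: the summed spore markers of DMSO replicate 2, 521 CPM, lay inside the WT DMSO range, and replicates 1 and 3 lay above it.

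The change after IAA followed the length of the coding sequence, taken from R64. Among 725 genes of up to 500 coding bases the median log2 change in PAB1 was -0.17, among 879 of over 1500 and up to 2000 it was 0.00, and among 181 of over 4000 it was 0.30. In the longest class 51 genes rose (28.2%) and 2 fell (1.1%), against 8.15% and 14% of all genes. In the shortest class 17 rose (2.34%) and 117 fell (16.1%), the latter near the share of all genes. The share of falls was largest among 1408 genes of over 500 and up to 1000 bases, where 321 fell (22.8%) and the median was -0.18. The longest genes lay above the shortest in all 3 same-numbered pairs, with 0.43, 0.27 and 0.18 for the longest genes and -0.20, -0.08 and -0.18 for the shortest. In WT the longest genes also lay above the shortest, over a smaller range, from -0.12 to 0.10, and the median change beyond WT was -0.02 in the shortest class, lowest at -0.10 among genes of over 500 and up to 1000 bases, and 0.20 in the longest. With total-count scaling the longest class was at 0.09 and the shortest at -0.38. Genes called higher beyond WT had a median coding length of 2714 bases and those called lower 966, against 1230.0 over all 5507 coding genes tested.

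Long genes stood higher against short ones in the PAB1 strain than in most other libraries, also with DMSO. The median log2 CPM of 449 genes of over 3000 coding bases exceeded that of 1417 genes of up to 750 by 2.97, 3.18 and 3.51 in the PAB1 DMSO libraries and by 3.56, 3.46 and 3.73 in the PAB1 IAA libraries. The 60 libraries of other strains ran from 1.84 to 3.08, with a median of 2.25, so that 5 of the 6 PAB1 libraries lay above all of them and 1 RAT1 library lay above the lowest PAB1 library. Between IAA and DMSO of the same number the difference changed by 0.22 to 0.59 in PAB1 and by -0.01 to 0.34 in WT, ranges that overlap. It changed by 0.36 to 0.55 in RAT1, with a mean of 0.44 against 0.36 in PAB1. In CAF40, LSM1 and RRP6 it also rose in every pair, in POP2 and XRN1 it fell in every pair, and in DCP2, NOT5 and PAT1 the sign varied. The part of coding length in the gene groups described above was not tested.

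**Figure D5:**
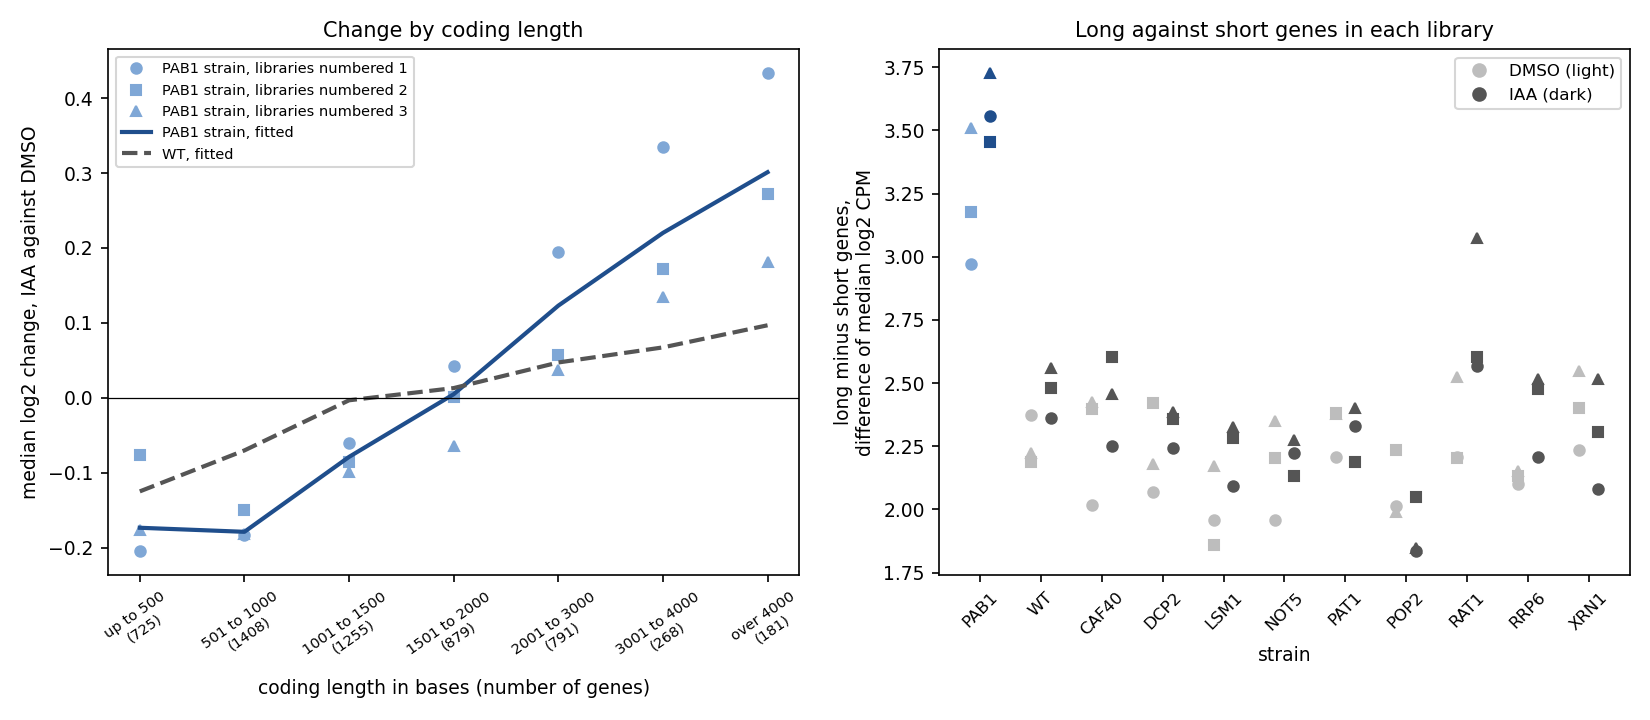
Left, median log2 change between IAA and DMSO by coding length (number of genes in brackets) in PAB1, as fitted and for the 3 same-numbered pairs, and in WT. Right, the difference in median log2 CPM between genes of over 3000 and up to 750 coding bases in each of the 66 libraries, where the PAB1 libraries lie between 2.97 and 3.73; circles, squares and triangles are replicates 1, 2 and 3.

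The change in PAB1 was also set against the mean change of the other 9 targeted strains, whose libraries enter the comparison with WT only through the shared estimate of the spread. This called 639 genes (11%), 236 higher and 403 lower (4.05% and 6.91%), and all 80 genes called beyond WT were among them with the same sign; the 2 comparisons share the PAB1 libraries. Without the libraries numbered 2, 442 genes were called (7.58%), and 329 and 365 without DMSO replicate 1 or IAA replicate 3. With total-count scaling 110 were called higher and 1304 lower. SSA2, HOM3, SSA4 and FET4 had the largest positive differences, at 2.88 ± 0.72, 2.47 ± 0.59, 2.45 ± 0.37 and 2.15 ± 0.60. Without the libraries numbered 2, SSA2 (2.28, adjusted p = 0.0872) and HOM3 (2.20, adjusted p = 0.0511) were no longer called. HOM3, the aspartate kinase of threonine and methionine synthesis, was at 70, 69.7 and 95 CPM with DMSO and 339, 788 and 854 CPM with IAA, with separate groups. FET4, a low-affinity iron and copper transporter, was at 158, 72.2 and 161 CPM with DMSO and 114, 183 and 147 CPM with IAA, where the groups overlapped, while in WT it fell from 118, 159.7 and 188 CPM to 23.4, 33.4 and 33.3 CPM. Its change within PAB1 did not pass the test (0.25 ± 0.56, adjusted p = 0.792), and without the libraries numbered 2 its difference from the other strains was 1.60 (adjusted p = 0.188). IDH1, IDH2, PEX21 and YOR292C had the largest negative differences, at -1.63 ± 0.20, -1.47 ± 0.24, -1.37 ± 0.30 and -1.24 ± 0.19. PEX21, a peroxisomal import factor, was at 65.4, 44.2 and 54 CPM with DMSO and 28.2, 37.6 and 45.7 CPM with IAA, with overlapping groups. Respiratory chain genes had 8 called lower and 0 higher in this comparison, mitochondrial ribosomal proteins 14 and 0, and cytosolic chaperones 0 and 13.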

How the data were processed

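RNA was selected with poly(A) beads from 100 ng and made into directional libraries read as paired ends of 100 bases, per the labels' protocols. The authors deposited 1 table whose gene rows hold whole-number counts per gene; sample labels and principal component scores stand above them, so that the columns taken whole have no single (other) unit, and a count test was replaced by limma. STAR 2.7.10a, RSEM 1.3.1 and DESeq2 1.48.1 are named, without role, in the submitters' processing notes; the genome build is not given in the sources used here. The table also has 6 columns that match no sample, which were not used.

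In R 4.3.3 the counts of 5828 genes (at least 0.484 CPM in 3 libraries and 15 counts in all) were TMM-scaled and fitted with limma 3.58.1 (voom) over all 66 libraries, 1 mean per group. P-values were Benjamini-Hochberg adjusted over all genes. Alternatives were total-count and median-of-ratios scaling, looser and stricter count filters, no voom weights, library quality weights, the compared groups alone, the replicate block and leaving out each library. Members, gene lists and tests were chosen with earlier results of these data known. Genes were named by the rule given above, with up to 4 called members of each list, all tail and closed-loop factors, 5 copper genes and the 4 largest differences each way from the other 9 strains. SPS4, MFA1, HSF1, GCN4, XRN1, SSE1, LEU1, JEM1, SIL1, LHS1, PMA2 and the genes grouped as transport proteins were named after their values were seen. So were SMK1, SPS1, GAS4, CRR1, DIT1, DIT2, SPS100, RNR1, CLN1, CLN2, POL30, STE6 and BAR1. Same-numbered PAB1 libraries deviated together from their group means (r = 0.449, 0.696 and 0.542), so the block by replicate number is given for the change within PAB1. Block results beyond WT are given as alternatives only, since the numbers were not taken to pair the WT libraries. Labels give the numbers only. Replicates differed by more than sampling noise. The fit was also run on simulated counts with known changes, and the outcome is not given here.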

Additional observations from a re-analysis of the deposited data

Results flagged for a closer look

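Results are listed here because the change after IAA in the PAB1 strain differed, by a limma test of the difference itself, from the change under the same additions in other strains. Against WT this held for 80 genes, and against the mean of the other 9 targeted strains for 639 genes. Of the genes named by rule, those above WT differed on the log2 scale by 2.38 (SSA4), 1.95 (HSP26), 2.66 (STL1), 1.01 (APA1), 1.09 (TAH11), 0.94 (KAP95), 0.94 (CHC1), 1.02 (SEC31), 1.70 (MRH1), 0.88 (SFA1), 0.71 (HLJ1) and 0.92 (NUP188). Those below WT differed by -0.84 (ODC1), -0.96 (SPG5), -1.22 (IDH1), -1.01 (YOR292C), -0.93 (IRC6), -0.73 (RCN1), -1.01 (SSU72), -0.79 (MRPL23), -0.80 (MIC10), -0.97 (YNG2), -0.95 (CHO1) and -0.81 (LRS4). Against the other 9 strains the differences were 2.88 (SSA2), 2.47 (HOM3), 2.45 (SSA4), 2.15 (FET4), -1.63 (IDH1), -1.47 (IDH2), -1.37 (PEX21) and -1.24 (YOR292C). FET4 is in this list while its own change in PAB1 did not pass the test.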

How the results depend on the processing

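The count of genes called between IAA and DMSO in PAB1, 1291, was 2010 with total-count scaling, 168 in a fit to the 6 PAB1 libraries alone, 2277 with the replicate block and 828 to 1358 when 1 library or both libraries numbered 2 were left out; in the 6 PAB1 libraries with the block it was 1895. The count beyond WT, 80, was 456 with total-count scaling, 212 with 1 quality weight per library, 0 in a fit to the PAB1 and WT libraries alone, 527 with the replicate block and 29 to 208 with libraries left out. In the PAB1 and WT libraries alone with the block it was 77, of which 30 were among the 80. The count beyond the other 9 strains, 639, was 1414 with total-count scaling, 1542 with the replicate block and 329 to 820 with libraries left out. The count between PAB1 and WT with DMSO, 2639, was 1651 in a fit to those 6 libraries and 1967 to 2581 with libraries left out. In WT the same-numbered libraries deviated with r = 0.311, 0.527 and -0.159, so the numbers are not taken to pair libraries in comparisons with other strains. Fits to fewer libraries had fewer degrees of freedom. Within PAB1 the count was 828 without IAA replicate 3 and 1358 without IAA replicate 1, against 1291. In fits to the compared groups alone the spread was estimated from those groups only. The cause of the shifts in these counts was not tested.

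The rise of the PAB1 transcript was not called with total-count scaling (0.36), with quality weights (0.44), in the 6 libraries alone (0.58) or without IAA replicate 3, DMSO replicate 1 or DMSO replicate 2, among values of 0.26 to 0.85 when libraries were left out. Beyond WT it was called with the replicate block (0.45), with 0.14 to 0.73 when libraries were left out. Beyond the other 9 strains it was not called with total-count scaling (0.46) or quality weights (0.53), and ranged from 0.36 to 0.95 with libraries left out. With total-count scaling the change within PAB1 turned negative for PAN2 (-0.028), PAN3 (-0.069), POP2 (-0.18), CAF40 (-0.090), TIF4632 (-0.057), EAP1 (-0.089), NAB2 (-0.010), GBP2 (-0.073) and TIF3 (-0.0025), and with quality weights for FET4 (-0.12). With libraries left out, PAN2 ranged from -0.028 to 0.38, POP2 from -0.047 to 0.18, CDC36 from -0.15 to 0.013, CAF40 from -0.065 to 0.25, TIF4632 from -0.031 to 0.29, SUP45 from -0.32 to 0.093, TIF3 from -0.015 to 0.32 and FET4 from -0.30 to 0.44; none of these genes was called within PAB1. Over the alternatives, named genes kept direction and call in 2485 results, lost the call in 349, gained it in 22 and turned in 24. Leaving out both libraries numbered 2 was chosen after seeing the data.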

Other observations

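General stress genes, which store carbohydrate and protect proteins, gave 4 higher and 1 lower calls of 30 in PAB1, against 8.15% and 14% of all genes (11 and 2 with the replicate block, against 15.4% and 23.7%; 1 and 1 without the libraries numbered 2), with a median of 0.22. With total-count scaling there were 1 and 1 calls and the median was 0.01. GDB1, the glycogen debranching enzyme, was at 1617, 1231 and 1537 CPM with DMSO and 3052, 2755 and 2506 CPM with IAA, and its log2 change was 0.93 ± 0.29; it was not called without the libraries numbered 2 (0.82). GLK1, a glucokinase, changed by 0.51 ± 0.17 and was not called without IAA replicate 2 (0.22). Oxidative stress genes gave 2 higher and 2 lower calls of 22, 9.09% and 9.09% (3 and 4 with the replicate block), among them GSH1, which begins glutathione synthesis, at 0.48 ± 0.16, not called without IAA replicate 3 (0.33). Of 34 proteasome genes 3 rose (8.82%) and 0 fell, with RPN4, the activator of proteasome genes, at 0.94 ± 0.16. None of these genes was called beyond WT.

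Proliferation genes gave 2 higher and 2 lower calls of 18, 11.1% and 11.1% against 8.15% and 14% of all genes (3 and 4 with the replicate block), shares near the background. RNR4, a subunit of ribonucleotide reductase, was at 378, 361 and 343 CPM with DMSO and 709.7, 739 and 614 CPM with IAA, and changed by 0.93 ± 0.21, while CLB5, an S-phase cyclin, changed by -0.70 ± 0.20 and was not called without the libraries numbered 2 (-0.60). Of 10 histone genes 2 fell, HTZ1, the H2A.Z variant, at -1.06 ± 0.22 and HHO1, the linker histone, at -0.61 ± 0.19, the latter not called without IAA replicate 3 (-0.53). Of 17 haploid and mating genes 1 rose and 0 fell (1 and 6 with the replicate block), and of 21 genes for allantoin and other poor nitrogen sources 2 rose and 0 fell (4 and 1 with the replicate block). GAP1, the general amino acid permease, was at 417, 661 and 366 CPM with DMSO and 705, 2395 and 991 CPM with IAA, with a log2 change of 1.37 ± 0.50, and was not called without IAA replicate 2 (0.84). Of 13 regulators of meiosis 3 fell and 0 rose, IME2, RIM11 and IDS2, the last at -0.34 ± 0.12; IDS2 was not called without IAA replicate 2 (-0.23), IAA replicate 3 (-0.31), DMSO replicate 1 (-0.18) or DMSO replicate 3 (-0.29). Copper genes gave 3 higher and 3 lower calls of 11.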
